A study of Homo sapiens with 48 samples.

Results

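The 43 genes described here serve homologous recombination, the Fanconi anaemia pathway and the replication checkpoint, and were followed in myeloma cells after depletion of IRE1 or of XBP1. They were chosen by name, as those rows of the count table whose symbol stands in a list of such genes, and the rule uses no measured value. The list itself was chosen with earlier results of these data known. All 43 were found, of 58302 genes in the table, and all 43 passed the filter on low counts in each of the 4 clones. By role they fall into 6 genes of end sensing and resection, 5 of the replication checkpoint, 13 of the BRCA complexes and strand exchange, 5 of joint molecule processing, 11 of the Fanconi anaemia pathway, and 3 others (POLQ, AUNIP and C1orf112).

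Homologous recombination repairs a broken chromosome by copying the sister chromatid, so it works in S and G2 phase. The ends are recognised and cut back, a recombinase filament is loaded with the help of the BRCA proteins and invades the sister, and the joined molecules are then taken apart. The Fanconi anaemia pathway uses these steps to repair crosslinks between the DNA strands met at replication forks, and the checkpoint kinases stop the cell cycle while repair goes on. Many of these genes are known to be transcribed most in cycling cells, under E2F and DREAM complexes.

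The cells were AMO1, an established human plasmacytoma line, with shRNAs switched on by doxycycline (Dox), and their RNA was sequenced. The shIRE1 clones carried 3 shRNAs against ERN1, the gene of the endoplasmic reticulum stress sensor IRE1 (genotype labels IRE1 sh7,8,9, Clone 1 and Clone 3), and the shXBP1 clones carried 3 against XBP1, whose mRNA IRE1 splices (XBP1 sh4,6,7, Clone 1 and Clone 18). Cells were grown in flasks with 0.2 µg/ml Dox for 0, 24, 48 or 72 h, with 3 flasks for each clone and time and 48 libraries in all. Each pair of clones stands for 1 target, and every time was set against 0 h of the same clone. No non-targeting shRNA was analysed here, and any effect of Dox or of shRNA expression is part of each change given.

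Total counts ran from 19177855 to 40767202 per library, and no pair of replicates agreed within sampling noise. Levels are given as CPM, read counts divided by TMM-scaled library size, changes are log2 fold changes with the standard error (SE) of the edgeR fit, and a gene is called when its p-value, adjusted over all genes tested, is under 0.05. XBP1 fell in both shXBP1 clones, from 158 to 178 CPM at 0 h to between 31.9 and 41.3 at 72 h. ERN1 went from 414, 447 and 436 to 141.6, 145 and 148 CPM by 24 h in shIRE1 clone 3, but only from 151, 152 and 155 to 127, 127 and 129.8 in clone 1, where it reached 93.2, 95.2 and 102 at 48 h. Each target also moved in the clones of the other. Mean XBP1 went from 179 CPM at 0 h to 131 at 48 h in shIRE1 clone 1 and from 214 to 114 in clone 3. Mean ERN1 went from 188 CPM at 0 h to 327 at 24 h in shXBP1 clone 1. In shXBP1 clone 18 it went from 411 at 0 h to 336 at 72 h. The plasma cell genes SDC1, PRDM1, IRF4, CD38 and JCHAIN were present throughout. Mean IRF4 went from 1301 CPM at 0 h to 578 at 48 h in shIRE1 clone 1 and from 1404 to 315 in clone 3. In shXBP1 clones 1 and 18 it went from 1410 to 1593 and from 1610 to 1569. The sum of 9 plasma cell markers was at least 14028 CPM at 0 h and at most 10195 at 48 h in shIRE1 clone 1. The same values were 17174 and 9043 in clone 3, 17420 and 14791 in shXBP1 clone 1 and 18406 and 16935 in clone 18. The part of these changes in the values below was not tested. Of 20 markers of B, T, myeloid and stromal cells, 15 had a median under 1 CPM, and CR2, FCER2, CD3E, CD8A and CD4 were above it, with CD4 at 106 to 501 CPM and CR2 at 1.79 to 12.96. PAX5, CD3D, CD2 and MPO had at most 1 count and DCN had none. The summed level of the 5 B cell markers lay between 3.58 and 4.88 CPM at 0 h and between 15.35 and 16.7 at 48 h in the shIRE1 clones, and its part in the values below was not tested. The library labelled shXBP1 clone 18, 72 h, replicate 3 stood nearer to clone 1 at 28 of 28 genes that separate the shXBP1 clones. It also correlated better with clone 1 (r = 0.9938) than with its own group (0.9832). The library of shIRE1 clone 3, 24 h, replicate 1 correlated slightly better with clone 1 (r = 0.9925) than with its own group (0.991). For most counts, medians and correlations within a clone or between clones that rest on either, the values without it are given as well. They are not given for DESeq2, nor without the shIRE1 clone 3 library for differences of response between the shIRE1 clones. In RNA from whole cultures, fewer cells that express a gene and less RNA in each cell cannot be told apart.

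Promoter windows (250 bases before to 50 after a transcription start, RefSeq, GRCh38.p14) were found for 39 of the 43 members, 53 windows in all. NBN, RAD54B, RMI2 and FANCI had none in the table. Words known as E2F sites (TTTGGCGC, TTTCCCGC or TTTCGCGC, on either strand) stood in the windows of EXO1, FANCC, FANCD2, TOPBP1 and XRCC2, which made 9.43% of the member windows against 2.74% of all 35116 windows of that length. EXO1, XRCC2 and FANCD2 are shown because their words lie within 22 bases of the start and because all 3 were among the 8 members with the largest mean falls below. TOPBP1 also has a word near the start, at -7, but a smaller mean change of -0.72, and is not shown. Capitals mark the E2F word, and AUNIP, the member with the largest fall, is shown as a window without one.
EXO1, chr1:241847954-241848253, plus strand: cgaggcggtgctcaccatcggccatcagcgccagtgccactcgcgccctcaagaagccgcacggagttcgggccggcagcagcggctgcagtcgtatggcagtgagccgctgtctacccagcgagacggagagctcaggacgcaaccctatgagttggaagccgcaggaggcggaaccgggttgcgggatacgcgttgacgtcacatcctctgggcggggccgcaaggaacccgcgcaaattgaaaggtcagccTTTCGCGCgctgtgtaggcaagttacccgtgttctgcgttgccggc
XRCC2, chr7:152676092-152676391, minus strand: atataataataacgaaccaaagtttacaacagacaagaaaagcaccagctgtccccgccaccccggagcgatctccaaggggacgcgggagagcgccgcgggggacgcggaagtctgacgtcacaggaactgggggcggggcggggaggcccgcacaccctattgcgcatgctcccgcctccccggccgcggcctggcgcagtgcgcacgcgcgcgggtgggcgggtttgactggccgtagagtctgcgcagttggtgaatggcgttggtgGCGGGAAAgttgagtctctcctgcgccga
FANCD2, chr3:10026187-10026486, plus strand: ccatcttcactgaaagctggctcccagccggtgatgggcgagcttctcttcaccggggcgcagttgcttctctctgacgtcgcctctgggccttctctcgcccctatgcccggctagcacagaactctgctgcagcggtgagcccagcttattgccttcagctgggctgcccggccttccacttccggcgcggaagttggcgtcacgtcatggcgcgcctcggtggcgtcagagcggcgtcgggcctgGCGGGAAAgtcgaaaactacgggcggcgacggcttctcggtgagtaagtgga
AUNIP, chr1:25859408-25859707, minus strand: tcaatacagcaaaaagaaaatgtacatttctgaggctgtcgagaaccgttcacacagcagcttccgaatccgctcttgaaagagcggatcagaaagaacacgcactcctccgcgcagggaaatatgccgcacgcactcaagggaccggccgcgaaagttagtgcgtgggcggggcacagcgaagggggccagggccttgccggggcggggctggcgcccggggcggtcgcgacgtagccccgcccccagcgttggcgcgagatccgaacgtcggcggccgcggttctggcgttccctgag
In EXO1 the word lies at position 5 from the start and in FANCD2 at -2 on the other strand. The cell cycle element TTTGAA was less frequent in the members, at 11.3% of member windows and 15.2% of all windows. CCAAT was more frequent in them, at 43.4% and 34.6%, but by a smaller ratio than the E2F words. The interferon-stimulated response element, a site of IRF factors, was in none of the member windows and in 3.57% of all windows, and the ETS-IRF composite word was in RAD51AP1 alone, 1.89% of member windows against 2.82%. A word in a window is a description of its letters and not of a bound site. Over the 6 comparisons with 0 h in the shIRE1 clones, the median of the mean log2 changes was -1.38 for the 5 members with an E2F word (lowest -1.76, highest -0.62) and -0.69 for the 34 with a window but no such word (-2.46 to 0.59), and the ranges overlapped. For TTTGAA the medians were -1.11 for the 6 members with the word and -0.72 for the 33 without. For CCAAT they were -0.69 for 18 and -0.88 for 21, and these ranges overlapped too.
E2F1 and E2F2, factors that bind E2F sites, were themselves lower after shIRE1. E2F2 went from 204, 204 and 205 CPM at 0 h to 69.95, 68.1 and 70.6 at 24 h in clone 1 and from 159.8, 168 and 158 to 66.8, 80.5 and 74.4 in clone 3, and E2F1 from 59.5, 60.9 and 63.4 to 20.8, 22.8 and 23.4 and from 68.4, 61.5 and 61.9 to 23.5, 24.8 and 25.2. Mean E2F1 in shXBP1 clone 1 went from 84.6 CPM at 0 h to 67.8 at 24 h and 52.2 at 72 h. Mean E2F2 there went from 245 to 187 and 188 at the same times. In shXBP1 clone 18 mean E2F1 went from 60.8 to 54.8 and 51.8, and mean E2F2 from 193 to 171 and 185. Whether the change of E2F1 and E2F2 bears on the members was not tested.

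The first comparison asked how the genes moved when IRE1 was depleted. Most of them fell, in both shIRE1 clones and at every time. In clone 1, 35 members were lower at 24 h, 32 at 48 h and 34 at 72 h, against 29.0%, 31.5% and 31.1% of all genes tested, and 3 members were higher at each time, against 32.4%, 33.9% and 32.5%. In clone 3, 32, 30 and 34 members were lower at the 3 times, against 23.3%, 31.6% and 30.5% of all genes, and 1, 3 and 2 were higher, against 22.8%, 31.6% and 29.7%. The median log2 change of the 43 members was -0.96, -0.73 and -0.72 in clone 1 and -0.80, -0.84 and -0.77 in clone 3, whereas the median of all genes tested lay between 0.02 and 0.04. Without the clone 3, 24 h library nearer to clone 1, 32 members were still lower and 1 higher at 24 h, with a median of -0.78, and no named member lost its 24 h call.

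The 3 times of a clone share its 0 h libraries. Of the 43 members, 30 were lower in all 6 comparisons, 8 in 1 to 5 of them, and 5 (NBN, ATR, FANCF, RAD50 and ATM) in none. Of the 16795 genes tested in both clones, 13.5% were lower in all 6, 35.8% in 1 to 5 and 50.7% in none. The mean log2 change over the 6 comparisons was -1 or lower for 19 members and between -1 and -0.5 for 9 more. The order ran from AUNIP, whose mean change of -2.46 left 18.18% of its 0 h level, through XRCC2 (-1.76), RAD54L (-1.65), EME1 (-1.62) and RAD54B (-1.52), to ATM, whose mean change was 0.59.

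**Figure D1:**
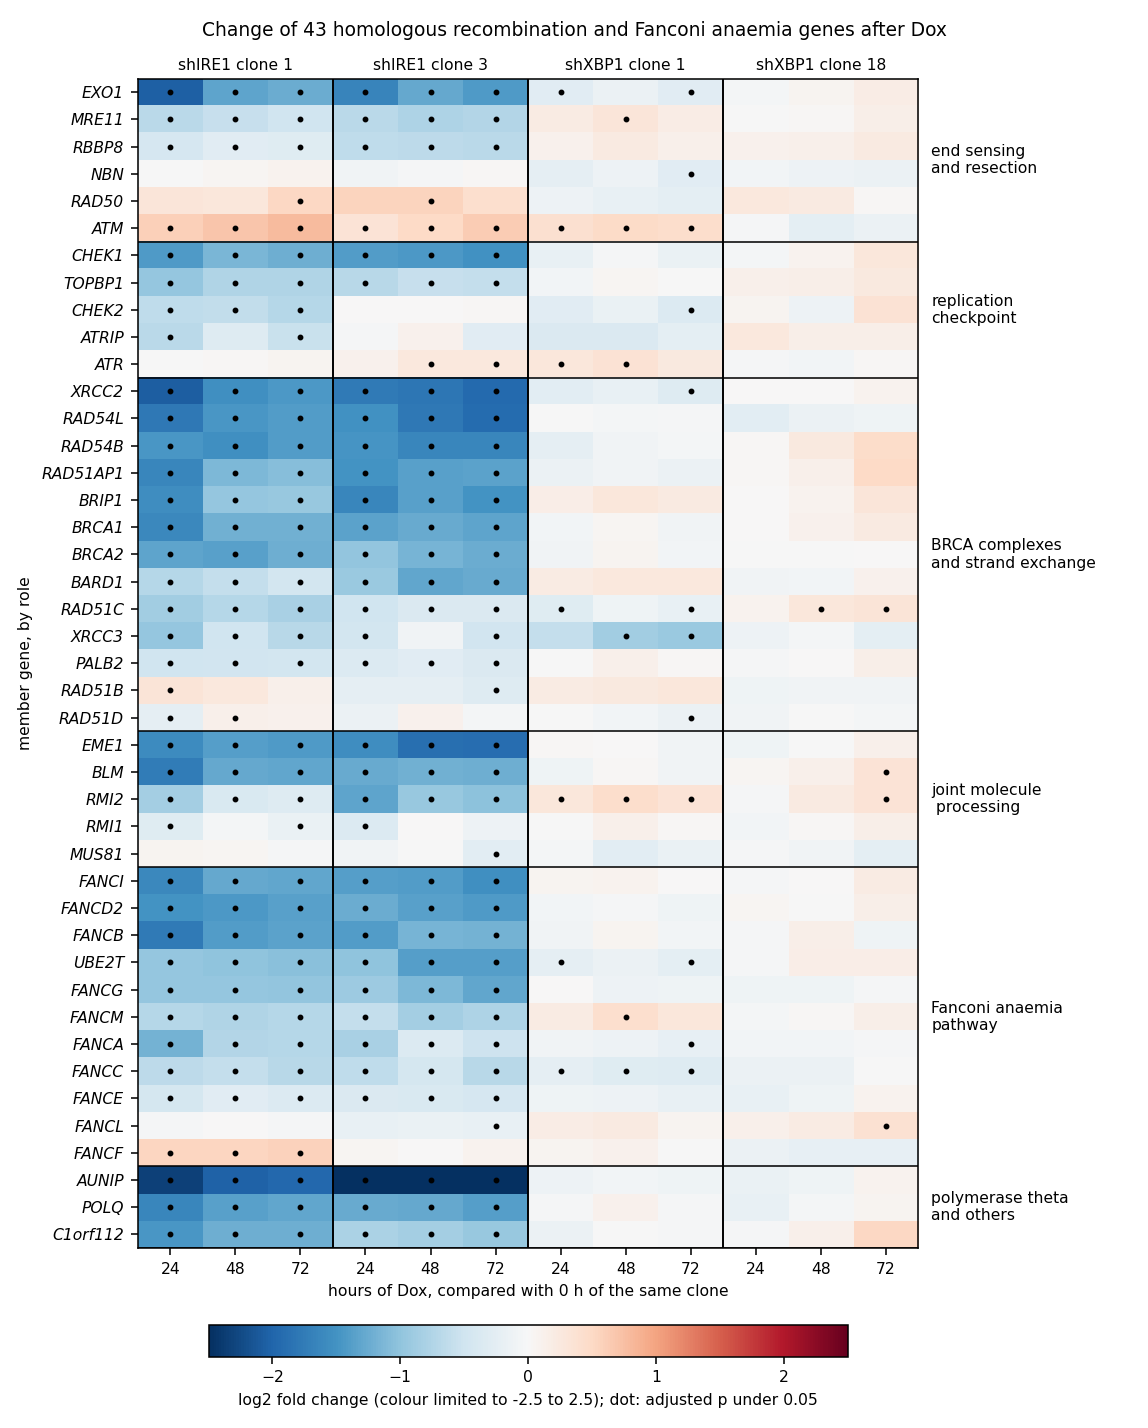
Log2 fold changes of the 43 members against 0 h, in columns by clone and hours of Dox and in rows by role, with blue for lower, red for higher and a dot where the adjusted p was under 0.05. The shIRE1 columns are blue for most rows, with ATM red in all 6, while the shXBP1 columns hold at most 12 dots each.

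Among the 6 genes that sense and cut back DNA ends, EXO1, MRE11 and RBBP8 were lower in all 6 comparisons, ATM was higher in all 6, and NBN was called in none. EXO1, the exonuclease of long-range resection, showed the largest fall of the group. Its levels in shIRE1 clone 1 were 129, 123 and 118 CPM at 0 h, 31.0, 29.3 and 30.6 at 24 h, 48.2, 48.4 and 52.1 at 48 h and 52.0, 53.1 and 51.4 at 72 h. In clone 3 they were 82.2, 91.7 and 87.1, then 27.1, 29.5 and 28.0, then 37.0, 35.8 and 37.3, then 30.2, 31.6 and 38.1. Every library with Dox lay below every 0 h library of its clone, and the lowest were those of 24 h. The log2 changes of EXO1 were -2.04, -1.32 and -1.25 at the 3 times in clone 1 and -1.65, -1.28 and -1.42 in clone 3 (SE 0.05 to 0.07, adjusted p at most 8.57e-10).

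MRE11, the nuclease that opens resection together with RAD50 and NBN, fell less. Its 3 libraries of shIRE1 clone 1 held 96.8, 93.3 and 93.2 CPM at 0 h, 61.9, 58.3 and 59.8 at 24 h, 64.4, 63.2 and 63.1 at 48 h and 63.9, 68.8 and 68.8 at 72 h. The values in clone 3 were 88.0, 95.7 and 95.6 at 0 h, 62.8, 59.2 and 57.0 at 24 h, 55.4, 55.0 and 57.3 at 48 h and 54.9, 54.5 and 64.3 at 72 h. Again no library with Dox reached the 0 h libraries. MRE11 was called lower throughout, by log2 changes of -0.67, -0.57 and -0.50 in clone 1 and of -0.67, -0.77 and -0.72 in clone 3 (SE 0.05 to 0.07, adjusted p at most 9.72e-07). RBBP8 encodes CtIP, which activates MRE11 at resection, and its log2 changes lay between -0.67 and -0.29. NBN, the partner that links the MRE11 complex to ATM, was called in none of the 6 comparisons. It lay at 135, 133 and 122 CPM at 0 h and 138, 131 and 124 at 24 h in clone 1, and at 119, 131 and 126 and 126, 115 and 117 in clone 3, with log2 changes from -0.10 to 0.10 over the 6 comparisons.

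ATM, the kinase that signals double-strand breaks, was called higher in both shIRE1 clones at all 3 times, and no other member was called higher in both at any time. ATM was measured in shIRE1 clone 1 at 216, 207 and 198 CPM before Dox, 352, 291 and 309.7 after 24 h, 323, 331 and 355 after 48 h and 347, 359 and 373 after 72 h. For clone 3 they were 203, 269 and 269, followed by 319.6, 321 and 309, by 358, 368 and 353 and by 375, 361 and 447. All libraries with Dox were above all 0 h libraries of their clone. The log2 change was 0.60, 0.69 and 0.79 in clone 1 and 0.33, 0.50 and 0.64 in clone 3 (SE 0.06 to 0.09, adjusted p at most 0.00908). RAD50, the ATPase of the MRE11 complex, had few counts, 35 to 182 per library, and overlaps exons of another annotated protein-coding gene on the same strand, so its level is uncertain. It stood at 2.11, 2.68 and 2.53 CPM at 0 h and 3.62, 3.95 and 2.99 at 72 h in clone 1, where it was called higher at 72 h (log2 change 0.52, SE 0.17, adjusted p = 0.015). In clone 3 it was called at 48 h alone (0.57, SE 0.24, adjusted p = 0.0488). Both calls depended on single libraries: the clone 1 call was lost without 0 h replicate 1 (0.44) or 72 h replicate 2 (0.43), and the clone 3 call was lost when any of 9 of the 12 libraries was left out, with a log2 change of 0.23 without 0 h replicate 1.

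Of the 5 checkpoint genes, CHEK1 and TOPBP1 were lower in all 6 comparisons, CHEK2 and ATRIP in clone 1 only, and ATR in none. CHEK1 encodes the kinase that carries the ATR signal. The CHEK1 levels of shIRE1 clone 1 were 140.4, 143 and 133 CPM at 0 h, 53.03, 52.2 and 51.9 at 24 h, 61.9, 61.7 and 66.7 at 48 h and 60.4, 62.8 and 57.6 at 72 h. Clone 3 gave 132, 129 and 123 at 0 h and then 53.6, 45.9 and 48.4, 47.99, 47.9 and 49.3, and 43.5, 43.6 and 51.7. No library with Dox reached the 0 h libraries, and in clone 1 those of 24 h were the lowest. CHEK1 fell, with log2 changes of -1.42, -1.13 and -1.21 at 24, 48 and 72 h in clone 1 and of -1.40, -1.44 and -1.51 in clone 3 (SE 0.05 to 0.07, adjusted p at most 6.91e-10). CHEK1 overlaps STT3A on the same strand in the annotation, so reads of the shared exons are uncertain. RAD54B (with FSBP), RAD51D and FANCG also overlap another protein-coding gene on their strand and carry the same limit.

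TOPBP1, the activator of ATR, kept more of its level. In shIRE1 clone 1 it lay at 346, 347 and 321 CPM at 0 h, at 183, 172 and 169.8 at 24 h, at 196.2, 196.4 and 212 at 48 h and at 198, 205 and 204 at 72 h. In clone 3 the same times gave 241, 287 and 272, then 171, 171 and 162, then 179, 187 and 183, then 172, 170.2 and 204. Its libraries with Dox were all below those of 0 h. The log2 changes of TOPBP1 were -0.97, -0.75 and -0.75 at the 3 times in clone 1 and -0.69, -0.58 and -0.59 in clone 3 (SE 0.04 to 0.07, adjusted p at most 3.81e-06). ATR itself, the kinase of stalled forks, stood at 129.8, 132 and 119.9 CPM at 0 h and 129.7, 134 and 138 at 72 h in clone 1, with no call. In clone 3 it stood at 94.2, 123 and 118 at 0 h, 138, 136 and 136 at 48 h and 133, 129 and 152 at 72 h, and was called higher at 48 h (0.26, SE 0.08) and 72 h (0.27, SE 0.08). The 0 h replicate 1 of that clone was the lowest library: without it the log2 changes were 0.13 and 0.14 and neither was called, and the 72 h call was also lost without 72 h replicate 3 (0.20). CHEK2, the kinase downstream of ATM, changed by -0.63, -0.62 and -0.71 in clone 1, all called, and by 0.01, 0.02 and 0.03 in clone 3, none called. ATRIP, the partner of ATR, was lower in clone 1 at 24 h (-0.67) and 72 h (-0.56), and shares exons with TREX1.

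The 13 genes of the BRCA complexes and strand exchange held several of the largest falls, with 12, 11 and 11 of them lower in clone 1 at the 3 times and 11, 10 and 12 in clone 3. XRCC2, a paralogue of the recombinase that helps its filament form, led the group. Its 3 libraries of shIRE1 clone 1 held 33.9, 30.2 and 29.8 CPM at 0 h, 7.94, 7.17 and 7.70 at 24 h, 10.4, 10.7 and 11.7 at 48 h and 11.5, 11.9 and 11.6 at 72 h. The values in clone 3 were 23.5, 29.2 and 24.7 at 0 h, 7.89, 8.39 and 6.87 at 24 h, 7.96, 7.43 and 7.17 at 48 h and 6.63, 6.32 and 7.56 at 72 h. The highest library with Dox, at 11.9 CPM, lay well below the lowest at 0 h, at 23.5. XRCC2 was called lower throughout, by log2 changes of -2.06, -1.52 and -1.43 in clone 1 and of -1.76, -1.81 and -1.95 in clone 3 (SE 0.07 to 0.11, adjusted p at most 3.23e-09).

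RAD54L, the motor protein that drives strand invasion, came next. RAD54L was measured in shIRE1 clone 1 at 26.3, 24.4 and 25.1 CPM before Dox, 6.47, 7.70 and 7.89 after 24 h, 9.89, 8.72 and 9.08 after 48 h and 9.21, 8.83 and 10.8 after 72 h. For clone 3 they were 26.1, 26.6 and 26.3, followed by 9.08, 9.33 and 9.67, by 8.06, 7.35 and 8.06 and by 7.22, 6.66 and 7.38. The lowest mean was that of 24 h in clone 1 and that of 72 h in clone 3. RAD54L fell, with log2 changes of -1.80, -1.46 and -1.40 at 24, 48 and 72 h in clone 1 and of -1.51, -1.79 and -1.93 in clone 3 (SE 0.07 to 0.09, adjusted p at most 4.42e-10). RAD54B, its relative, was measured at few counts (38 to 226 per library). It lay at 6.45, 5.42 and 5.52 CPM at 0 h and 1.80, 1.97 and 2.23 at 48 h in clone 1, and at 5.05, 5.32 and 5.23 and 1.38, 1.723 and 2.03 in clone 3. The log2 changes of RAD54B were -1.46, -1.54 and -1.40 at the 3 times in clone 1 and -1.47, -1.63 and -1.63 in clone 3 (SE 0.14 to 0.18, adjusted p at most 9e-06).

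BRCA1 and BARD1 form a ubiquitin ligase that promotes resection, and BRCA1 changed by -1.61 to -1.19 on the log2 scale over the 6 comparisons. BARD1 differed between clones, with changes of -0.71, -0.59 and -0.47 in clone 1 and -0.93, -1.31 and -1.26 in clone 3. The helicase BRIP1 changed by -1.63 to -0.96, the filament loader BRCA2 by -1.35 to -0.98, and RAD51AP1, which binds the filament, by -1.63 to -1.06. PALB2, the bridge between BRCA1 and BRCA2, changed less, by -0.50 to -0.28, though it was called lower in all 6. All of these 6 genes were lower in every comparison.

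Among the other paralogues, RAD51C was lower in all 6 comparisons (-0.87 to -0.36) and XRCC3 in 5, with -0.09 and no call in clone 3 at 48 h. RAD51B was called higher in clone 1 at 24 h (0.32) and lower in clone 3 at 72 h (-0.32). RAD51D moved least on average. The RAD51D levels of shIRE1 clone 1 were 49.0, 48.8 and 49.97 CPM at 0 h, 39.9, 44.5 and 43.1 at 24 h, 55.1, 52.0 and 55.8 at 48 h and 50.02, 54.2 and 56.1 at 72 h. Clone 3 gave 46.2, 47.9 and 45.7 at 0 h and then 43.7, 41.4 and 43.997, 52.7, 52.9 and 48.04, and 46.9, 48.1 and 43.7. The libraries of 24 h lay below those of 0 h in both clones, and only in clone 1 was that called (-0.23, SE 0.06, adjusted p = 0.00156). It was called higher in clone 1 at 48 h (0.14, adjusted p = 0.0382), a call lost with each 0 h library left out (0.12 without replicate 2) and without 48 h replicate 1 or 3.

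**Figure D2:**
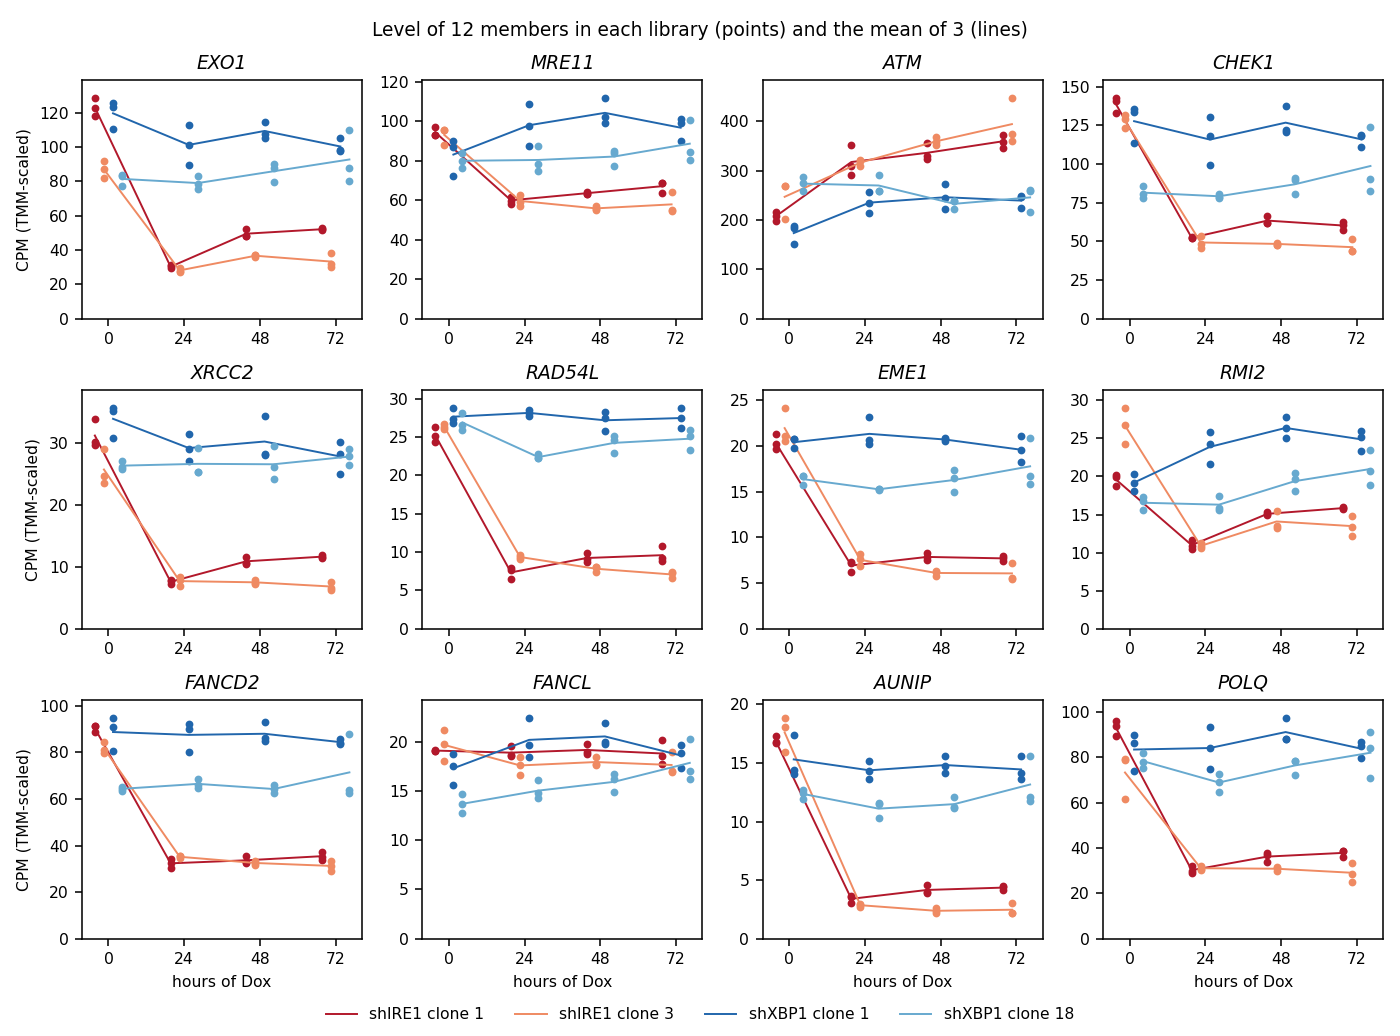
Level of 12 members in CPM (vertical axis, from 0) against hours of Dox, with 1 point for each library and a line through the mean of 3, in red for the shIRE1 clones and blue for the shXBP1 clones. EXO1, CHEK1, XRCC2, RAD54L, EME1, FANCD2, AUNIP and POLQ drop by 24 h in both shIRE1 clones and stay low, ATM goes up, and FANCL overlaps its 0 h range in them; in several panels 1 point of shXBP1 clone 18 at 72 h stands above the other 2.

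The joined molecules are resolved by 5 of the genes, and 3 of these, EME1, BLM and RMI2, were lower in all 6 comparisons. EME1, the partner of the nuclease MUS81, fell most. In shIRE1 clone 1 it lay at 21.3, 20.2 and 19.6 CPM at 0 h, at 7.21, 6.21 and 7.32 at 24 h, at 8.27, 7.48 and 7.81 at 48 h and at 7.95, 7.76 and 7.38 at 72 h. In clone 3 the same times gave 24.1, 21.1 and 20.5, then 6.81, 7.57 and 8.21, then 6.21, 5.76 and 6.32, then 5.52, 5.43 and 7.21. In clone 3 the 48 h libraries lay below those of 24 h as well. EME1 was called lower throughout, by log2 changes of -1.57, -1.38 and -1.41 in clone 1 and of -1.56, -1.88 and -1.90 in clone 3 (SE 0.08 to 0.11, adjusted p at most 1.65e-08). The catalytic partner MUS81 was called in 1 comparison only. Its 3 libraries of shIRE1 clone 1 held 23.8, 26.8 and 28.0 CPM at 0 h, 25.6, 28.4 and 29.3 at 24 h, 27.8, 27.5 and 25.7 at 48 h and 25.8, 27.1 and 24.998 at 72 h. The values in clone 3 were 33.3, 33.6 and 33.3 at 0 h, 26.9, 35.4 and 33.0 at 24 h, 34.5, 33.2 and 33.9 at 48 h and 30.6, 31.0 and 23.4 at 72 h. Its libraries overlapped between 0 h and Dox in every comparison but that of clone 3 at 72 h, called lower (-0.27, SE 0.11, adjusted p = 0.0397), and that call was lost without 72 h replicate 3 (-0.15) and without any 1 of the 0 h or 48 h libraries.

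BLM, the helicase that dissolves double Holliday junctions, fell with EME1. BLM was measured in shIRE1 clone 1 at 124, 128 and 113 CPM before Dox, 38.9, 36.1 and 35.3 after 24 h, 48.2, 49.7 and 53.1 after 48 h and 48.8, 49.9 and 50.03 after 72 h. For clone 3 they were 76.3, 92.2 and 80.1, followed by 37.0, 34.6 and 33.3, by 35.7, 37.4 and 38.0 and by 35.3, 33.8 and 40.1. No library with Dox came near the 0 h level. BLM fell, with log2 changes of -1.74, -1.28 and -1.30 at 24, 48 and 72 h in clone 1 and of -1.27, -1.20 and -1.22 in clone 3 (SE 0.05 to 0.08, adjusted p at most 5.49e-09). Its cofactors RMI1 and RMI2 differed from each other. RMI2 stood at 19.9, 20.2 and 18.69 CPM at 0 h, 10.9, 11.6 and 10.4 at 24 h, 14.9, 15.31 and 15.1 at 48 h and 15.96, 15.9 and 15.7 at 72 h in clone 1, and at 29.0, 26.8 and 24.3, 11.2, 10.9 and 10.6, 13.4, 13.3 and 15.5 and 13.4, 12.2 and 14.8 in clone 3. Its lowest libraries were those of 24 h in both clones. The log2 changes of RMI2 were -0.85, -0.38 and -0.31 at the 3 times in clone 1 and -1.32, -0.96 and -1.02 in clone 3 (SE 0.06 to 0.09, adjusted p at most 0.000296). RMI1 was lower in 3 of the 6 comparisons and changed by -0.33 to 0.00.

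The 11 Fanconi anaemia genes encode the core complex (FANCA, FANCB, FANCC, FANCE, FANCF, FANCG, FANCL and FANCM), the ubiquitin-conjugating enzyme UBE2T, and the pair FANCD2 and FANCI that the complex ubiquitinates at a crosslink. Of these, 9 were lower at every time in both clones, and FANCL and FANCF were not. FANCI and FANCD2, the substrates, fell most on average. The FANCI levels of shIRE1 clone 1 were 269.7, 264 and 247 CPM at 0 h, 89.3, 85.1 and 85.8 at 24 h, 108, 103 and 110.1 at 48 h and 105, 108 and 105 at 72 h. Clone 3 gave 207, 247 and 231 at 0 h and then 87.6, 92.2 and 87.4, 86.9, 88.8 and 91.2, and 76.9, 74.5 and 90.1. The highest library with Dox held 110.1 CPM and the lowest at 0 h 207. FANCI was called lower throughout, by log2 changes of -1.60, -1.29 and -1.30 in clone 1 and of -1.38, -1.40 and -1.54 in clone 3 (SE 0.04 to 0.07, adjusted p at most 7.24e-10). FANCD2 was lower to a like degree. In shIRE1 clone 1 it lay at 91.2, 91.3 and 88.6 CPM at 0 h, at 34.1, 32.7 and 30.3 at 24 h, at 35.7, 32.8 and 32.6 at 48 h and at 35.1, 37.4 and 33.9 at 72 h. In clone 3 the same times gave 79.8, 84.6 and 80.9, then 34.6, 35.5 and 35.5, then 31.5, 32.6 and 33.4, then 31.2, 29.1 and 33.5. In clone 1 the 3 times with Dox overlapped, and in clone 3 the 24 h libraries were slightly above the later ones. FANCD2 fell, with log2 changes of -1.497, -1.43 and -1.36 at 24, 48 and 72 h in clone 1 and of -1.239, -1.37 and -1.42 in clone 3 (SE 0.06, adjusted p at most 2.92e-10).

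Within the core complex the changes were unequal. FANCB changed by -1.76 to -1.16, FANCG by -1.30 to -0.91, FANCM by -0.84 to -0.60, FANCA by -1.19 to -0.34, FANCC by -0.69 to -0.44 and FANCE by -0.45 to -0.28, and UBE2T by -1.38 to -0.98, all called lower in all 6 comparisons. FANCL, the ubiquitin ligase subunit, was called in 1 comparison only. Its 3 libraries of shIRE1 clone 1 held 19.04, 19.1 and 19.2 CPM at 0 h, 19.5, 18.53 and 18.6 at 24 h, 18.8, 19.8 and 18.9 at 48 h and 18.6, 20.2 and 17.7 at 72 h. The values in clone 3 were 21.2, 19.8 and 18.1 at 0 h, 18.47, 16.7 and 17.7 at 24 h, 17.8, 18.46 and 17.6 at 48 h and 16.96, 16.99 and 18.98 at 72 h. Its libraries overlapped with 0 h in every comparison, and the single call, in clone 3 at 72 h (-0.19, adjusted p = 0.0413), was lost when any of 8 libraries was left out, for example 0 h replicate 1 (-0.15), and in 7 of 7 other settings. At 24 h it was called lower in clone 3 without 24 h replicate 1, the library nearer to clone 1 (-0.23), without 0 h replicate 3 (-0.26) or without 72 h replicate 3 (-0.20).

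FANCF, the adaptor that joins the core complex, was called higher in clone 1. FANCF was measured in shIRE1 clone 1 at 37.3, 35.9 and 36.5 CPM before Dox, 54.4, 53.5 and 52.7 after 24 h, 54.0, 54.0 and 52.4 after 48 h and 54.0, 55.1 and 54.9 after 72 h. For clone 3 they were 49.3, 49.5 and 49.4, followed by 52.5, 52.5 and 50.3, by 51.1, 50.7 and 51.2 and by 54.7, 53.9 and 53.9. In clone 1 it rose by 0.53, 0.55 and 0.57 (SE 0.05, adjusted p at most 8.55e-09), while in clone 3 the log2 changes were 0.04, 0.01 and 0.10 with no call, although its libraries with Dox lay above those of 0 h there too. The clones differed at 0 h (clone 1 minus clone 3, -0.45 on the log2 scale), and the libraries with Dox of both clones lay in 1 range, from 50.3 to 55.1 CPM.

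Among the remaining 3 members, AUNIP, a protein that recruits resection factors to breaks, had the largest fall of all 43. The AUNIP levels of shIRE1 clone 1 were 16.7, 16.8 and 17.3 CPM at 0 h, 3.54, 3.02 and 3.66 at 24 h, 4.57, 3.995 and 3.92 at 48 h and 4.48, 4.42 and 4.19 at 72 h. Clone 3 gave 15.9, 18.1 and 18.8 at 0 h and then 2.96, 2.88 and 2.74, 2.32, 2.21 and 2.61, and 2.16, 2.21 and 3.06. No library with Dox held more than 4.57 CPM in clone 1 or 3.06 in clone 3. The log2 changes of AUNIP were -2.33, -2.02 and -1.96 at the 3 times in clone 1 and -2.65, -2.92 and -2.87 in clone 3 (SE 0.09 to 0.13, adjusted p at most 3.14e-10). POLQ, the polymerase of theta-mediated end joining, fell too. In shIRE1 clone 1 it lay at 96.0, 93.7 and 89.2 CPM at 0 h, at 31.9, 29.0 and 29.8 at 24 h, at 37.0, 33.7 and 37.8 at 48 h and at 38.6, 36.0 and 38.9 at 72 h. In clone 3 the same times gave 61.7, 78.7 and 79.3, then 30.4, 32.1 and 30.7, then 29.8, 31.0 and 31.7, then 28.7, 25.1 and 33.3. The 3 times with Dox overlapped in clone 3. POLQ was called lower throughout, by log2 changes of -1.64, -1.37 and -1.31 in clone 1 and of -1.26, -1.28 and -1.37 in clone 3 (SE 0.06 to 0.10, adjusted p at most 7.48e-08). C1orf112, known as FIRRM and a regulator of the recombinase filament, fell as well, and at 24 h it fell more in clone 1 (difference of -0.66, SE 0.18). Its 3 libraries of shIRE1 clone 1 held 53.8, 53.6 and 51.6 CPM at 0 h, 21.6, 17.04 and 20.001 at 24 h, 23.3, 22.1 and 23.0 at 48 h and 22.6, 22.9 and 22.9 at 72 h. The values in clone 3 were 33.3, 37.3 and 34.1 at 0 h, 20.3, 20.05 and 20.9 at 24 h, 18.9, 20.4 and 20.02 at 48 h and 17.7, 16.9 and 20.9 at 72 h. Its 0 h levels did not overlap between the clones and its levels with Dox did. C1orf112 fell, with log2 changes of -1.46, -1.22 and -1.23 at 24, 48 and 72 h in clone 1 and of -0.80, -0.85 and -0.95 in clone 3 (SE 0.07 to 0.08, adjusted p at most 7.75e-07).

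The clones were compared with each other gene by gene. Across the 43 members the log2 changes of shIRE1 clones 1 and 3 had a Pearson r of 0.919 at 24 h, 0.897 at 48 h and 0.898 at 72 h, with Spearman's rho of 0.922, 0.879 and 0.887; the 2 clones share no library, and genes are not independent replicates. Without the 24 h library of clone 3 that stood nearer to clone 1, the 24 h values were 0.907 and 0.911. In both clones 32, 30 and 31 members were lower at the 3 times, 1 was higher (ATM), and none was called in opposite directions at the same time. Over all genes tested in both clones, 15.8%, 21.9% and 21.4% were lower in both, 14.6%, 21.7% and 20.5% higher in both, and 4.86%, 4.94% and 4.12% opposite. Without the same library 31 members were lower in both at 24 h. For the shXBP1 clones r was -0.116, 0.031 and 0.169, and without the clone 18 library nearer to clone 1 it was -0.121, 0.026 and 0.22.

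**Figure D3:**
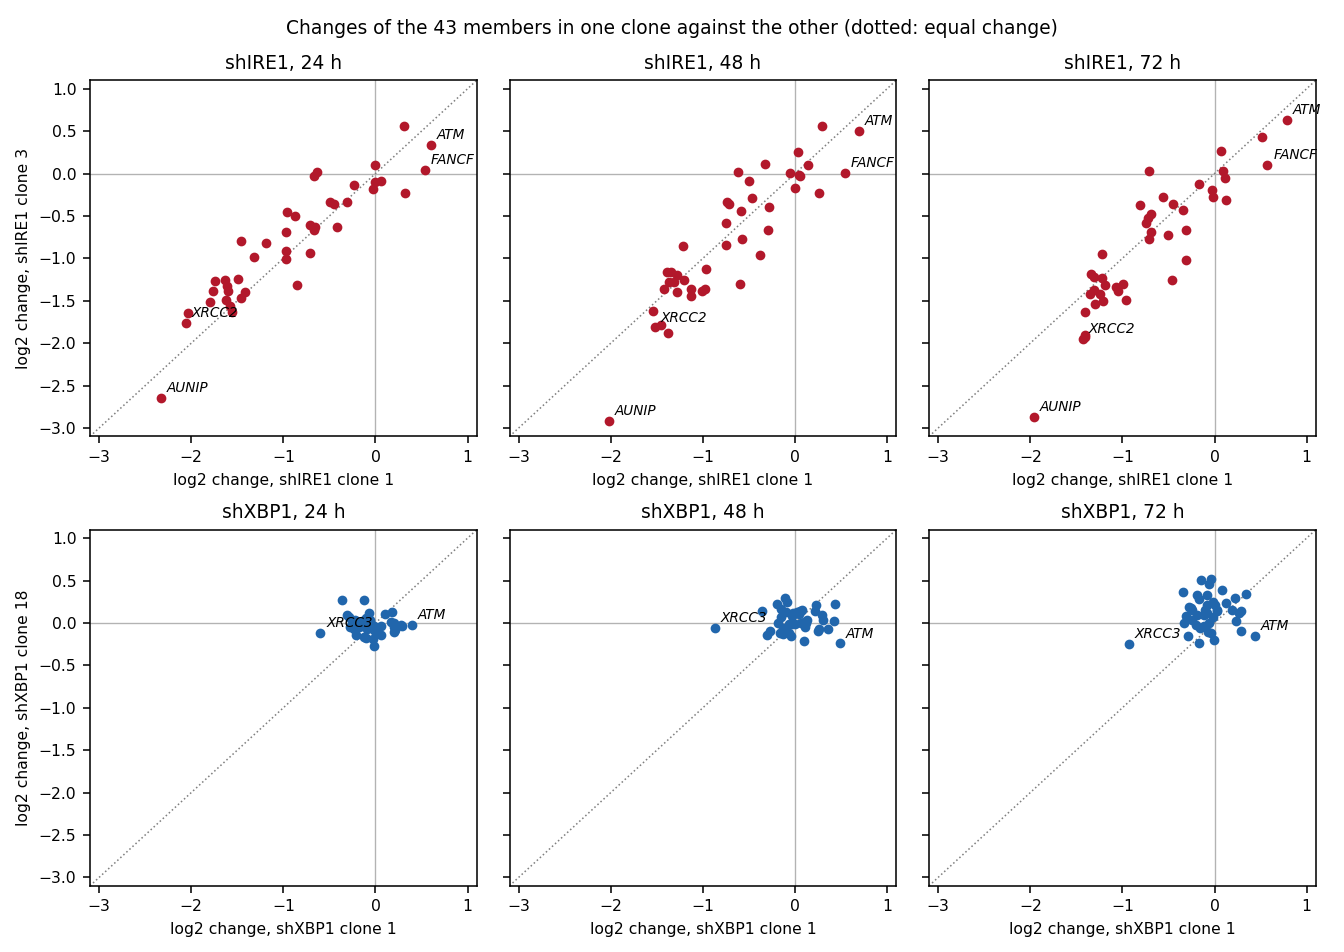
Log2 change of each of the 43 members in 1 clone (horizontal axis) against the other clone of the same shRNA (vertical axis) at 24, 48 and 72 h, with the dotted line for equal change. The shIRE1 points lie along the line from AUNIP to ATM (r from 0.897 to 0.919), and the shXBP1 points lie in a cloud around 0.

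Between 24 and 48 h many members of shIRE1 clone 1 regained a part of their level, and from 48 to 72 h no member was called in either shIRE1 clone. In shIRE1 clone 1, 21 members were higher at 48 h than at 24 h and none was lower, against 16% and 14.3% of all genes tested. EXO1 regained 0.72 on the log2 scale (SE 0.05), BRIP1 0.59, XRCC2 0.53, RAD51AP1 0.50, RMI2 0.47, BLM 0.46 and BRCA1 0.40, and each still lay below its 0 h libraries. In clone 3, 7 members were higher and 5 lower at 48 h than at 24 h, against 17.2% and 17.4% of all genes, and the largest changes were those of FANCA (0.48) and EXO1 (0.37) upward and of BARD1 (-0.38) and UBE2T (-0.37) downward. Without the 24 h library nearer to clone 1, FANCC was no longer called (0.18 with it, 0.16 without). EXO1, BRIP1, RAD51D, RMI1, RMI2 and FANCA were higher at 48 h than at 24 h in both clones, while RAD54L was higher in clone 1 (0.34) and lower in clone 3 (-0.27). The clone 3 counts did not exceed the shares of all genes, and for calls in both clones no such share is given. From 48 to 72 h the edgeR count was 0 in both clones, against 0.869% and 0.936% of all genes in either direction. At an unadjusted p under 0.05 there were 1 and 7 members. The shares just given are of adjusted calls, and none is given at the unadjusted threshold.

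After depletion of XBP1 few members changed, and RMI2 alone was called in the same direction in both clones, at 72 h, against 1.44% of all genes higher in both and 2.19% lower in both at that time. Without the clone 18 library nearer to clone 1 no member was called in the same direction in both. In shXBP1 clone 1, 4, 2 and 10 members were lower at 24, 48 and 72 h, against 12.8%, 15.5% and 16.8% of all genes, and 3, 5 and 2 were higher, against 13.9%, 16.6% and 16.8%. In clone 18 none was lower at any time, against 1.30%, 3.50% and 5.55% of all genes, and 0, 1 and 4 were higher, against 0.291%, 2.28% and 4.41%. The medians of the 43 members were -0.06, -0.02 and -0.08 in clone 1 and -0.03, 0.00 and 0.14 in clone 18, and without 72 h replicate 3, the library nearer to clone 1, the last was 0.05. The signs of the small medians were not stable, since leaving out 1 library turned the 24 h value of clone 1 (0.002 without 24 h replicate 2) and also its 48 h value (without replicate 3 of 0 h, 0.016). At an unadjusted p under 0.05 clone 18 had 2, 5 and 18 members, and DESeq2 called 1, 1 and 9. Without that library the unadjusted counts were 5, 10 and 12, with 1 and 2 members called lower at 24 and 48 h and none at 72 h. The unadjusted and DESeq2 counts stand without a share of all genes, so they are not read as a result about the members.

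ATM was called higher at all 3 times in shXBP1 clone 1, as in the shIRE1 clones. ATM was measured in shXBP1 clone 1 at 150.4, 183 and 187 CPM before Dox, 257, 214 and 235 after 24 h, 222, 272 and 244 after 48 h and 224, 247 and 248 after 72 h. The libraries with Dox lay above those of 0 h. ATM rose by 0.40, 0.48 and 0.44 on the log2 scale at the 3 times (SE 0.10, adjusted p at most 0.01). In clone 18 it lay at 259, 287 and 275 at 0 h and 217, 261 and 259 at 72 h, with log2 changes of -0.03, -0.24 and -0.15 and no call. FANCC was lower at all 3 times in clone 1, with log2 changes of -0.22, -0.30 and -0.33. EXO1 and UBE2T were lower there at 24 and 72 h, and XRCC3 at 48 and 72 h (-0.87 and -0.93, SE 0.26). These counts depended on single libraries. At 24 h 7 members were called, and 4 without 24 h replicate 3. At 48 h 7 were called, 4 without 48 h replicate 2, and 12 and 11 without 24 h replicates 1 and 2, where further members were called. At 72 h 12 were called, 4 without 72 h replicate 2, 6 without 72 h replicate 3 and 8 without 72 h replicate 1. The balance of 10 lower and 2 higher at 72 h became 4 lower and 5 higher without 0 h replicate 3, and 5 lower and 3 higher without 72 h replicate 1.

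RMI2, the cofactor of BLM, was higher at 72 h in both shXBP1 clones, the reverse of its direction after shIRE1. The RMI2 levels of shXBP1 clone 1 were 18.1, 20.3 and 19.1 CPM at 0 h, 25.8, 21.6 and 24.3 at 24 h, 25.01, 27.7 and 26.4 at 48 h and 23.4, 25.2 and 26.0 at 72 h. Clone 18 gave 17.3, 16.8 and 15.6 at 0 h and then 17.4, 15.6 and 15.9, 18.03, 19.7 and 20.4, and 20.7, 18.9 and 23.4. In clone 1 all libraries with Dox lay above those of 0 h. RMI2 rose by 0.28, 0.44 and 0.35 on the log2 scale at the 3 times (SE 0.08, adjusted p at most 0.0218). In clone 18 the 72 h change was 0.35 (SE 0.09, adjusted p = 0.0329), and without replicate 3, the library nearer to clone 1, it was 0.27 and not called. At 24 h the clone 1 change was not called when replicate 1 of 0 h was left out (0.25), nor without replicate 1 (0.24) or 3 (0.27) of 24 h.

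The 4 members called higher at 72 h in clone 18 were RAD51C, BLM, RMI2 and FANCL, and without that library RAD51C alone was called. RAD51C lay at 46.0, 46.0 and 44.2 CPM at 0 h, 57.3, 57.3 and 53.1 at 48 h and 54.9, 56.7 and 59.1 at 72 h, and rose by 0.29 and 0.33 (SE 0.06), whereas in clone 1 it was lower at 24 h (-0.31) and 72 h (-0.19). The 48 h call was lost without any 1 of the 0 h libraries or without 48 h replicate 1 or 2, and without 72 h replicate 3 ATM and FANCF were called lower at 48 h. BLM lay at 83.2, 91.5 and 113 CPM at 72 h against 73.2, 80.1 and 75.0 at 0 h, with a change of 0.33 that was 0.21 without replicate 3. FANCL lay at 17.04, 16.3 and 20.3 against 13.7, 14.7 and 12.7, with 0.38 and 0.29. In each of these, and in C1orf112 (25.3, 27.4 and 48.7), replicate 3 was the highest 72 h library. The count at 72 h was 17 without replicate 1, 1 without any of the 0 h libraries, 2 without 48 h replicate 2 and 1 without replicate 3.

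The next comparison set the response to shIRE1 against that to shXBP1, each as the mean of 2 clones, in a model of all 48 libraries. The SE and p-values of these differences, here and below, measure the spread between flasks of a clone and not that between clones of a target. At 24 h, 33 members responded lower in shIRE1 and 2 higher, against 19.7% and 19.1% of the 18445 genes tested. At 48 h the counts were 31 and 3 (28.0% and 28.9%), and at 72 h 33 and 5 (27.4% and 28.0%). In either direction the response of 38.7%, 56.9% and 55.3% of all genes differed at the 3 times. The median difference over the members was -0.88, -0.93 and -0.96, against medians of 0.04 over all genes.

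At 48 h the 3 most negative differences were those of AUNIP (-2.39, SE 0.10, adjusted p = 5.6e-22), RAD54B (-1.67, SE 0.16, adjusted p = 1.32e-11) and EME1 (-1.63, SE 0.09, adjusted p = 2.14e-18). In the shXBP1 clones AUNIP lay between 10.3 and 17.4 CPM in all 24 libraries, RAD54B between 3.42 and 6.48, and EME1 between 14.9 and 23.1. None of the 3 was called in a shXBP1 comparison. The most positive differences at 48 h were those of ATM (0.47, SE 0.09, adjusted p = 3.78e-05), RAD50 (0.41, SE 0.22, not called) and FANCF (0.33, SE 0.05, adjusted p = 8.64e-08). FANCF lay between 34.4 and 43.1 CPM in the shXBP1 libraries. The difference of ATM at 24 h (0.27) was not called without shIRE1 clone 1, 24 h replicate 1 (0.22) or shIRE1 clone 3, 0 h replicate 1 (0.20). The smaller difference of RAD51D was lower at 24 h (-0.14) and higher at 48 h (0.15) and 72 h (0.13), the first lost without any of 4 libraries and the last without any of 31. With no filter on low counts none of the 3 was called (0.17 at 48 h, adjusted p = 0.16), and the 72 h call was also lost with RLE scaling and DESeq2.

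**Figure D4:**
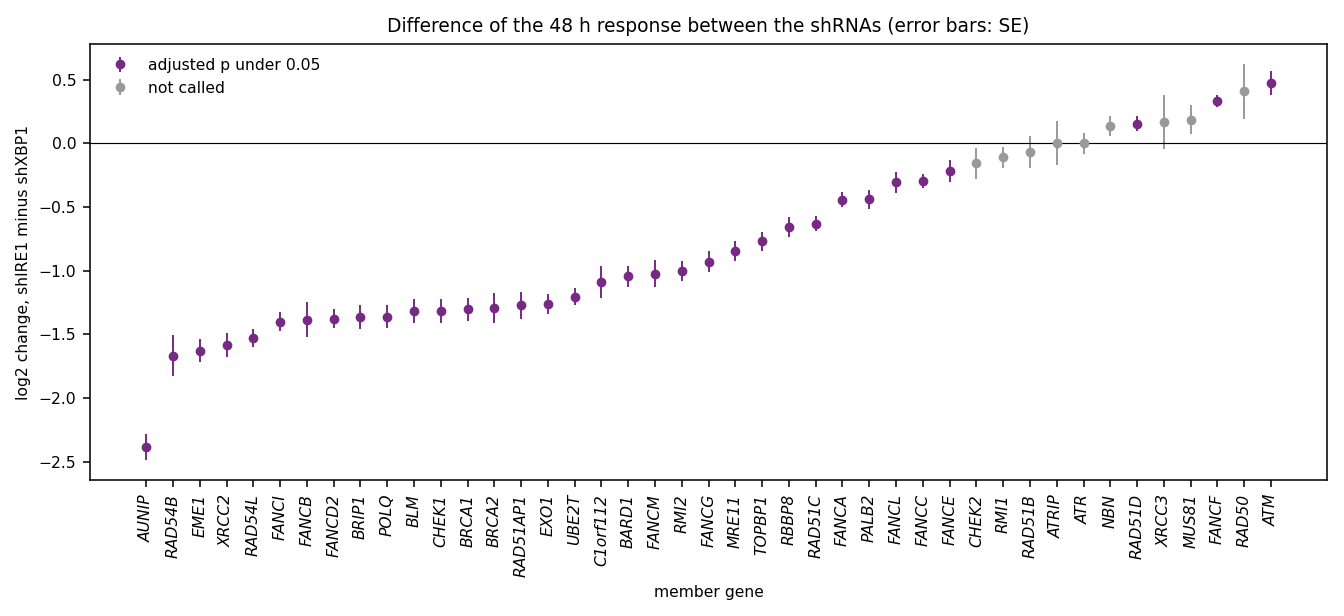
Difference of the 48 h log2 changes, shIRE1 minus shXBP1 (vertical axis), for the 43 members in order, with error bars of 1 SE and purple for an adjusted p under 0.05. The points run from AUNIP (-2.39) to ATM (0.47), with 31 members called below 0 and 3 above.

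The response differed between clones of the same shRNA for about the same share of the members as of all genes. Between the shIRE1 clones 13, 13 and 12 members differed in their response at 24, 48 and 72 h (30.2%, 30.2% and 27.9% of them), against 28.2%, 30.8% and 27.5% of all genes. AUNIP fell more in clone 3, by 0.89 at 48 h and 0.90 at 72 h (SE 0.15 and 0.16), as did BARD1 (0.70 and 0.78) and RMI2 (0.57 and 0.70), whereas CHEK2 was lower in clone 1 (-0.64, -0.64 and -0.75 at the 3 times). Between the shXBP1 clones 6, 9 and 12 members differed (14.0%, 20.9% and 27.9%), against 17.1%, 24.1% and 24.6%, and ATM differed at all 3 times (0.45, 0.74 and 0.62, higher in clone 1). Without the library labelled clone 18, 72 h, replicate 3 the counts were 7, 9 and 8 between the shXBP1 clones and, since all libraries share 1 fit, 15, 15 and 16 between the shIRE1 clones.

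The clones already differed before Dox. At 0 h 21 members differed between shIRE1 clones 1 and 3 and 29 between shXBP1 clones 1 and 18, against 40.6% and 51.3% of all genes in either direction. Without the library labelled clone 18, 72 h, replicate 3 the counts were 22 and 32. The median difference over the members, clone 1 minus the other clone, was 0.13 for shIRE1 and 0.30 for shXBP1. Over all genes it was -0.02 and -0.005. Between the shXBP1 clones XRCC3 (1.06), C1orf112 (1.03) and RAD51AP1 (1.01) were the most different, all higher in clone 1, and ATM was lower there (-0.67). Between the shIRE1 clones CHEK2 (0.75), ATRIP (0.65) and FANCB (0.62) were higher in clone 1 and RMI2 (-0.47) and FANCF (-0.45) lower.

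Other repair genes were counted the same way. Of 43 further genes of recombination and crosslink repair, 41 were tested, and 21, 22 and 22 were lower and 11, 10 and 9 higher in shIRE1 clone 1, with medians of -0.28, -0.27 and -0.27. In clone 3, 19, 22 and 20 were lower and 6, 7 and 9 higher, with medians of -0.08, -0.20 and -0.15. FAAP100 and FAAP20, partners of the Fanconi core complex named here after their values were seen, had the largest mean rises, with log2 changes between 0.66 and 1.18 and between 0.52 and 1.25. Of 17 further checkpoint genes 14 or 15 were lower in clone 1 and 12 in clone 3, with medians between -0.77 and -0.49. End joining genes (18) and genes of mismatch and excision repair (41) were called in both directions, with medians from -0.31 to -0.05 and from -0.13 to -0.01. Some genes, RPA2, USP1, CLSPN and FEN1 among them, stand both in a repair list and in the S phase list.

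Markers of the cell cycle moved in the same comparisons. Of 38 S phase markers, with members left out, 36 to 38 were lower in every shIRE1 comparison, with medians between -1.38 and -1.06, and of 52 G2/M markers tested 49 to 52 were lower, with medians between -1.44 and -1.10. The summed level of the S phase markers was 6220 to 6507 CPM at 0 h and 2321 to 2380 at 24 h in clone 1, and 4812 to 4947 and 2255 to 2270 in clone 3. In shXBP1 clone 1, 17, 17 and 20 S phase markers were lower, with medians between -0.21 and -0.11. There 25, 17 and 19 G2/M markers were lower too, with medians of -0.23, -0.06 and -0.11. In clone 18, 13 G2/M markers were higher at 48 h and 26 at 72 h, or 24 and 21 without the library nearer to clone 1. The part of a change in cycling cells in the values of the members was not tested.

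**Figure D5:**
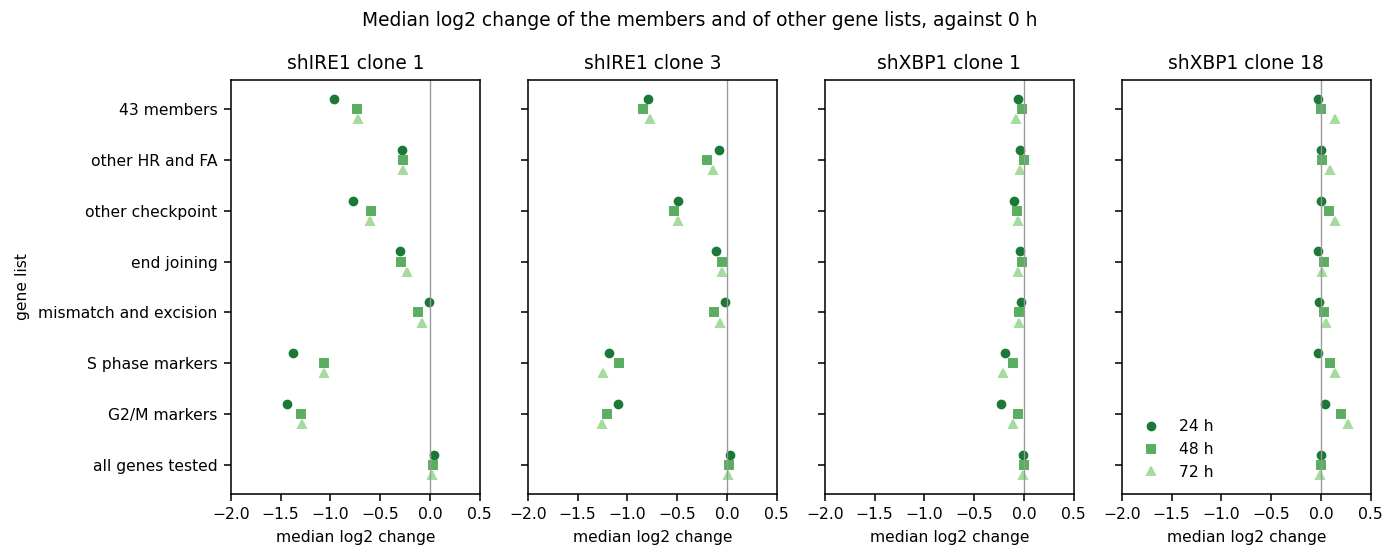
Median log2 change against 0 h (horizontal axis) of the 43 members, 6 other gene lists and all genes tested, for each clone, with circles for 24 h, squares for 48 h and triangles for 72 h. In the shIRE1 clones the medians of the members, between -0.96 and -0.72, lie at each time below those of the other repair lists and above those of the S phase and G2/M markers.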

How the data were processed

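RNA of 48 AMO1 libraries was sequenced with a stranded mRNA kit (single-end, 50 bases). Deposited were raw counts per gene, not normalized by the authors, and a log2 table made by the authors, which matched edgeR's log2 CPM with a prior count of 2. The test design had assumed linear values in the second table, which was used on its log2 scale. The submitters' processing notes name GRCh37, GSNAP, R 4.1.3, edgeR 3.32.1 and limma 3.46.0. Members were matched by symbol.

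Counts were tested with edgeR 4.0.16 in R 4.3.3 (TMM scaling, glmQLFit and glmQLFTest). Each clone's 12 libraries were fitted alone with 4 time means, on genes passing filterByExpr (minimum count 10, minimum total count 15). Differences between shRNAs and between clones came from 1 fit of all 48 libraries. P-values were adjusted by the Benjamini-Hochberg method over all genes tested and called under 0.05. Alternatives were RLE scaling, no filter, DESeq2 1.42.0, limma 3.58.1 on the log2 table, other sets of libraries, a replicate block and leaving out each library. Fits were tested on simulated data. The named members are the 2 with the largest and the 1 with the smallest absolute mean change in each role, those higher in both clones of a shRNA, and the 3 most negative and 3 most positive differences at 48 h. Members and gene lists were chosen with earlier results of these data known. Replicate numbers did not pair the libraries: over 72 pairs the correlation of deviations lay between -0.409 and 0.246, and 5 exceeded 0.1. Replicates were separate flasks of 1 clone, so p-values measure the spread between cultures.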

Additional observations from a re-analysis of the deposited data

Results flagged for a closer look

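The response of 35 members at 24 h, 34 at 48 h and 38 at 72 h differed between shIRE1 and shXBP1 in the edgeR test of the difference itself, in the fit of all 48 libraries, against 38.7%, 56.9% and 55.3% of all genes. Among the members named for the size of their 48 h difference were AUNIP (-2.39), RAD54B (-1.67), EME1 (-1.63), ATM (0.47) and FANCF (0.33), and RAD51D was called too, at 0.15, but not with no filter on low counts (0.17, adjusted p = 0.16). The same test between clones of 1 shRNA called 13, 13 and 12 members for the shIRE1 clones and 6, 9 and 12 for the shXBP1 clones at the 3 times, against 28.2%, 30.8% and 27.5% and against 17.1%, 24.1% and 24.6% of all genes. The causes of these differences were not tested.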

How the results depend on the processing

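No called change or difference of a named member turned direction under an alternative. Of 228 medians over the members, 6 changed sign, all in the shXBP1 clones and all within 0.06 of 0 in the reported fits: in clone 1 at 24 h (-0.06 reported) 0.002 without 24 h replicate 2, and at 48 h (-0.02) 0.008 and 0.016 without 0 h replicates 2 and 3 and 0.012 without 48 h replicate 1; in clone 18 at 24 h (-0.03) 0.0098 without 24 h replicate 3, and at 48 h (0.003) -0.0075 with 6 libraries. Of the counts of members called, 456 values under an alternative stayed within 1.5 times the reported count and 37 did not, and for the named members 8672 values kept their side of the threshold, 153 lost it and 76 gained it. In shXBP1 clone 1 the fit of 6 libraries called 2 members at 24 h (7 reported), that of 48 libraries 13 at 24 h and 12 at 48 h (7 reported), and the replicate block 7 at 72 h (12 reported). In shXBP1 clone 18 DESeq2, 6 libraries and 48 libraries each called 1 at 24 h (0 reported). At 48 h (1 reported) it was 2 with no filter, 3 with 6 libraries and 2 with 48 libraries. At 72 h (4 reported) it was 12 with no filter, 9 with DESeq2, 14 with 48 libraries, and 1 both with 6 libraries and with the replicate block. From 48 to 72 h in shIRE1 clone 3, no filter gave 1 (0 reported), and between the shXBP1 clones at 24 h the replicate block gave 3 (6 reported). Leaving out 1 library gave 37 to 38, 34 to 37 and 36 to 38 members in shIRE1 clone 1, 32 to 35, 31 to 34 and 31 to 36 in shIRE1 clone 3, 4 to 10, 4 to 12 and 4 to 15 in shXBP1 clone 1, and 0 to 1, 0 to 3 and 1 to 17 in shXBP1 clone 18. It gave 15 to 21 (clone 1) and 9 to 15 (clone 3) from 24 to 48 h in the shIRE1 clones, 0 from 48 to 72 h, and 33 to 36, 33 to 35 and 36 to 38 for shIRE1 minus shXBP1. The cause of these shifts was not tested. RAD50, a member with few reads, and XRCC3 had the widest errors of the 48 h differences (SE 0.22 and 0.21).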

Other observations

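Some other genes of recombination, named here after their values were seen, fell in the shIRE1 clones as well. They come from the further genes of recombination and crosslink repair, of which 41 were tested. At 24 h 21 of the 41 were lower and 11 higher in clone 1, with a median of -0.28. In clone 3 the same counts were 19 and 6, with a median of -0.08. MCM8, a helicase subunit that extends repair synthesis, changed by -1.68 to -1.35 on the log2 scale over the 6 comparisons. GEN1, a nuclease that cuts Holliday junctions, changed by -1.53 to -1.22, and DNA2, a nuclease of long-range resection beside EXO1, by -1.47 to -1.02. RECQL4, a helicase that acts early in resection, had the widest range of these, from -2.06 to -0.62.

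In shIRE1 clone 1 the targeted mRNA and the members did not move by like amounts over time. ERN1 changed by -0.27 at 24 h, -0.66 at 48 h and -0.58 at 72 h, while the median change of the 43 members was -0.96, -0.73 and -0.72. In clone 3 ERN1 changed by -1.60, -1.86 and -1.82, with member medians of -0.80, -0.84 and -0.77.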
